A study of Mus musculus with 49 samples.

Results

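The 36 genes described here build fatty acids and cholesterol in the liver or control that synthesis, and they were chosen by gene symbol, 17 for the fatty acid branch and 19 for the sterol branch. Each gene was read at its brightest probe set over the 49 mouse samples, and 35 of the 36 had one, with no probe set read here for Acat2, the cytosolic thiolase at the head of the sterol branch. Expression came from custom Affymetrix arrays, whose probe sets name 21517 genes. All mice were of the FVB background. The 6-week TRE-MET livers (7 samples) came from mice that, by the study's methods, held 1 copy of a human MET transgene under a tetracycline operator and 1 copy of LAP-tTA, in which the liver-specific LAP promoter drives the transactivator, while the genotype label names only the MET transgene. The 7-week LAP-tTA livers (7 samples) carried the transactivator transgene alone, in 2 copies by the methods. At 14 weeks, 7 MET mice gave 2 tumors each (14 samples), a liver piece labelled ad-Liv (7 samples) and a liver piece labelled dis-Liv (7 samples), read here as adjacent to and distant from the tumor. The titles of these tumor and liver samples name both transgenes, LAP-tTA and Tre-met. The FVB-WT livers of 14 weeks (7 samples) are labelled wild type, whereas the methods describe the older controls as the transactivator strain. For 1 TRE-MET liver the labels give 2 ages. Levels are log2 of the deposited intensity, on which 0 is the mean of an array and a difference of 1 is a doubling, and both tumors of a mouse were averaged before any mean, SD or test, so that n = 7 mice in every group. Genes were compared with limma, and a gene is called where its Benjamini-Hochberg adjusted p over all probe sets was under 0.05. Nothing but the mouse numbers says how far the samples of a group were separate experiments, so the p-values measure the spread between these samples.

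As background, the liver turns surplus carbohydrate into fatty acids through acetyl-CoA and malonyl-CoA, elongates and desaturates them, and stores them as triglyceride in lipid droplets. Cholesterol is built from the same acetyl-CoA through mevalonate, isoprenoids, squalene and lanosterol. SREBP-1c, made from Srebf1, together with the carbohydrate-sensing factor ChREBP, made from Mlxipl, drives mainly the first route, and SREBP-2, made from Srebf2, drives mainly the second. The INSIG proteins hold both SREBPs in the endoplasmic reticulum when sterols are plentiful. Insulin after a meal, the circadian clock and sex hormones all act on these genes in mouse liver.

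Some libraries stood apart, and the results that rest on them are given with and without them. Tumor 1b was the lowest of the 14 tumors for 29 of the 35 genes and the highest for 2, Cd36 and Plin2, and the largest gap between the tumors of a mouse lay in mouse 1 for 31 genes. TRE-MET samples 1, 2, 3 and 5 read the clock gene Dbp at -3.17 to -1.75 and the neutrophil gene S100a8 at 0.74 to 1.89, TRE-MET samples 4, 6 and 7 read Dbp at 1.82 to 2.27 and S100a8 at -3.38 to -2.45, and the LAP-tTA livers read them at 0.83 to 1.29 and -3.10 to -2.18. All 14 young livers read Eif2s3y, a gene of the Y chromosome, whereas among the 14-week animals 4 of the 7 MET mice (numbers 3 to 6) and 2 of the 7 FVB-WT mice (numbers 1 and 2) read Xist in its place. FVB-WT samples 5 and 7 read pancreas genes, with Cpa1 at 2.97 and -0.71. Albumin (Alb) lay between 6.85 and 7.17 in all 49 samples, at the top of the intensities read, so its even level does not measure hepatocyte content. The adipose genes Adipoq and Plin1 lay between -5.38 and -3.78. The mouse Met probe set, which may not read the human transgene and so does not check the labels, lay at 1.62 to 2.54 in TRE-MET livers and at 1.67 to 2.01 in LAP-tTA livers.

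Promoters are shown for 5 members with a matched promoter and a called change in tumors against dis-Liv, 3 of the fatty acid branch and 2 of the sterol branch, to let the sequences be read beside the values. RefSeq (build GRCm38.p6) gave promoters for 29 of the 36 genes, and Scd1, Scd2, Dgat2, Fdps, Fdft1, Sqle and Stard4 were not matched. The 180 bases before the start are printed on the gene's own strand. Capitals mark CCAAT boxes (CCAAT or its complement ATTGG) and the sterol regulatory element (TCACNCCAC) on either strand. The windows are chr11:120824548-120824727 (minus strand) for Fasn, chr7:97417551-97417730 (minus) for Thrsp, chr15:84167636-84167815 (plus) for Pnpla3, chr13:119690171-119690350 (plus) for Hmgcs1 and chr5:114444089-114444268 (plus) for Mvk.
Fasn: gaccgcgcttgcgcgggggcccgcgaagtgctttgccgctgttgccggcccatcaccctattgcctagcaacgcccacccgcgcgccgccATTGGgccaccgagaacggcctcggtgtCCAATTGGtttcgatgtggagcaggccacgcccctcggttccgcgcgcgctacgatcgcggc
Thrsp: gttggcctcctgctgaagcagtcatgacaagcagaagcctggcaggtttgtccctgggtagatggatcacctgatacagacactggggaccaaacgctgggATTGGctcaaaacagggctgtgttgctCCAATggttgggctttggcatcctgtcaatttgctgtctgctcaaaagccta
Pnpla3: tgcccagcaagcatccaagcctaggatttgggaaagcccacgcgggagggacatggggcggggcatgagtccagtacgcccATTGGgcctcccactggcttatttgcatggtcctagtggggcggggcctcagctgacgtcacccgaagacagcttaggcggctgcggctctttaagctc
Hmgcs1: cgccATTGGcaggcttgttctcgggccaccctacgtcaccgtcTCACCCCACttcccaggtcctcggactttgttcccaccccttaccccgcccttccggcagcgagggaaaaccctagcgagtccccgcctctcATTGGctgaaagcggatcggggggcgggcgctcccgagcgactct
Mvk: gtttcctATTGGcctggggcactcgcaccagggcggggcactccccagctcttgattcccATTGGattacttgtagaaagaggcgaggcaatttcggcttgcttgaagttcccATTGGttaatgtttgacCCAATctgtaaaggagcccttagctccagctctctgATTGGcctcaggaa
Over 250 bases before any listed start, a CCAAT box was found for 14 of 15 sterol genes and 11 of 14 fatty acid genes, against 37.5% of all 27025 genes in the table. The sterol element was found for 1 gene of each branch, Hmgcs1 and Mlxipl, against 1.22% of all genes. The E-box CACGTG was found for 4 sterol and 2 fatty acid genes, against 6.86%. None of the 3 motifs shares letters with another in these windows except the overlapping CCAAT boxes of Fasn, whose central run can be read as a box on either strand. Mvk held 5 CCAAT boxes, and Fasn and Hmgcs1 held 3 each. These matches describe letters in a window.

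The branches differed across the groups. In 6-week TRE-MET livers fatty acid genes were lower than in LAP-tTA livers, with 8 of 17 called lower and 0 called higher, where 5.04% of all genes were called lower and 4.32% higher. In the 14-week liver of MET mice they were higher than in FVB-WT livers, with 10 of 17 called higher in dis-Liv and 10 in ad-Liv, where 3.33% and 4.72% of all genes were called higher. Sterol genes stayed close to the background in these 3 comparisons, with 1 of 18 called lower in TRE-MET livers (Hsd17b7), 1 called lower in dis-Liv (Hsd17b7) and 0 called in ad-Liv. In ad-Liv 5 sterol genes had an unadjusted limma p under 0.05, as did 5569 of all 21517 genes. In tumors 12 fatty acid genes were called lower and 2 higher than in dis-Liv of the same mice, where 16.3% of all genes were called lower and 16.7% higher. The 5 sterol genes called higher and 3 called lower there lay near the shares among genes as bright as the members, 28.4% and 24%. The median log2 change of the fatty acid and of the sterol genes was -0.38 and 0.16 for TRE-MET minus LAP-tTA, 0.56 and -0.02 for dis-Liv minus FVB-WT, 0.56 and 0.11 for ad-Liv minus FVB-WT, and -0.81 and 0.38 for tumor minus dis-Liv, where the median over all genes was 0.01, -0.01, 0.03 and -0.04.

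**Figure D1:**
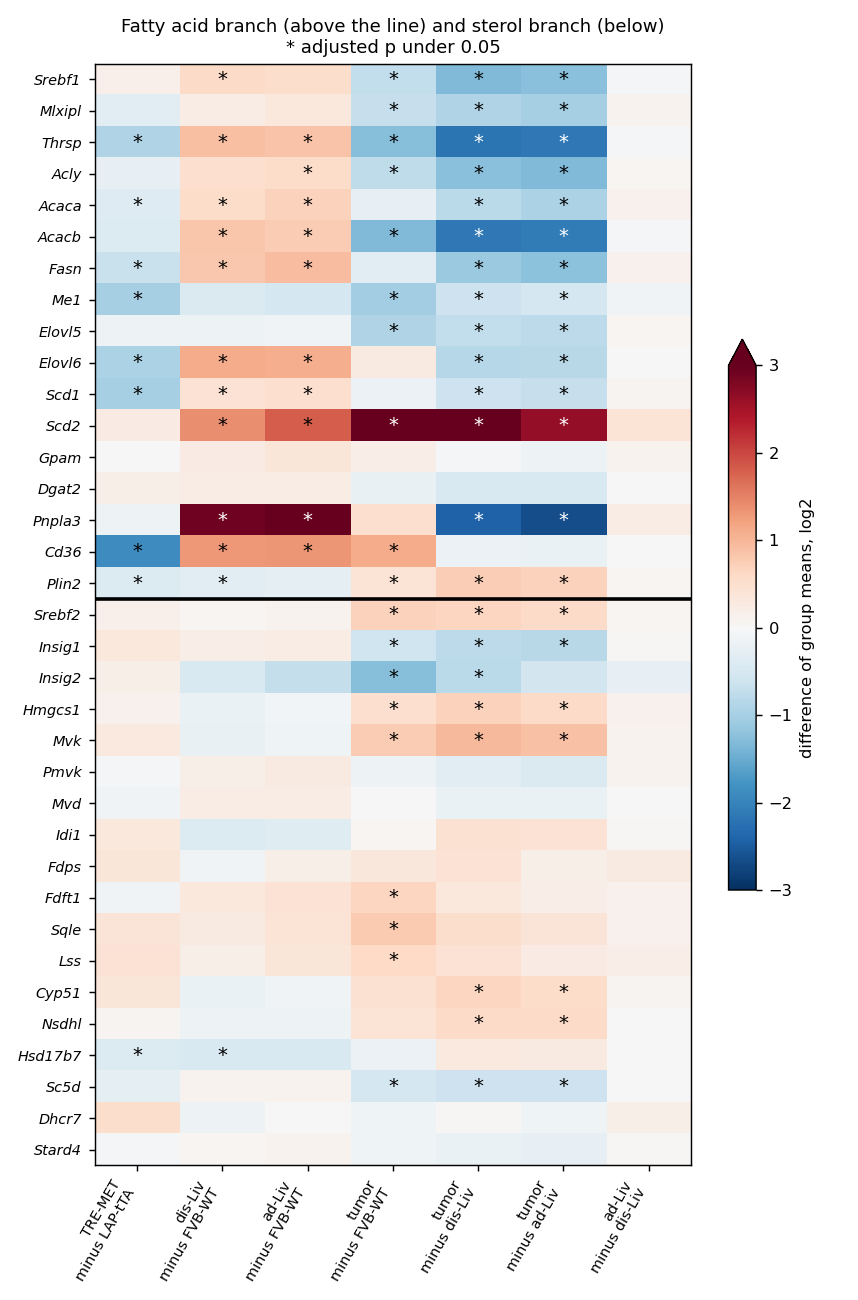
Difference of group means (log2, colour; values above 3 share the darkest red) for 35 genes in 7 comparisons, with an asterisk where the adjusted p was under 0.05. Fatty acid genes above the line run mostly blue in TRE-MET livers, mostly red in dis-Liv and ad-Liv against FVB-WT, and blue in tumors against either liver piece apart from Scd2 and Plin2, while sterol genes below the line are coloured mainly in the tumor columns.

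The mean over the 17 fatty acid genes lay at 1.61 to 2.16 in TRE-MET livers (median 1.81), against 2.20 to 2.52 in LAP-tTA livers (median 2.30), with no overlap. It lay at 1.40 to 2.96 in tumors (median 2.28), 2.58 to 3.39 in ad-Liv (median 3.04), 2.60 to 3.37 in dis-Liv (median 2.99) and 2.08 to 2.90 in FVB-WT livers (median 2.29), where the 2 livers that read Xist held the 2 highest values, 2.44 and 2.90. The mean over the 18 sterol genes spread widely within groups, at 1.38 to 2.85 in TRE-MET livers (median 2.41) against 1.81 to 2.53 in LAP-tTA livers (median 2.13). In the older animals the sterol mean had medians of 2.35 in tumors, 2.28 in ad-Liv, 2.20 in dis-Liv and 2.16 in FVB-WT livers, and all 4 groups overlapped.

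**Figure D2:**
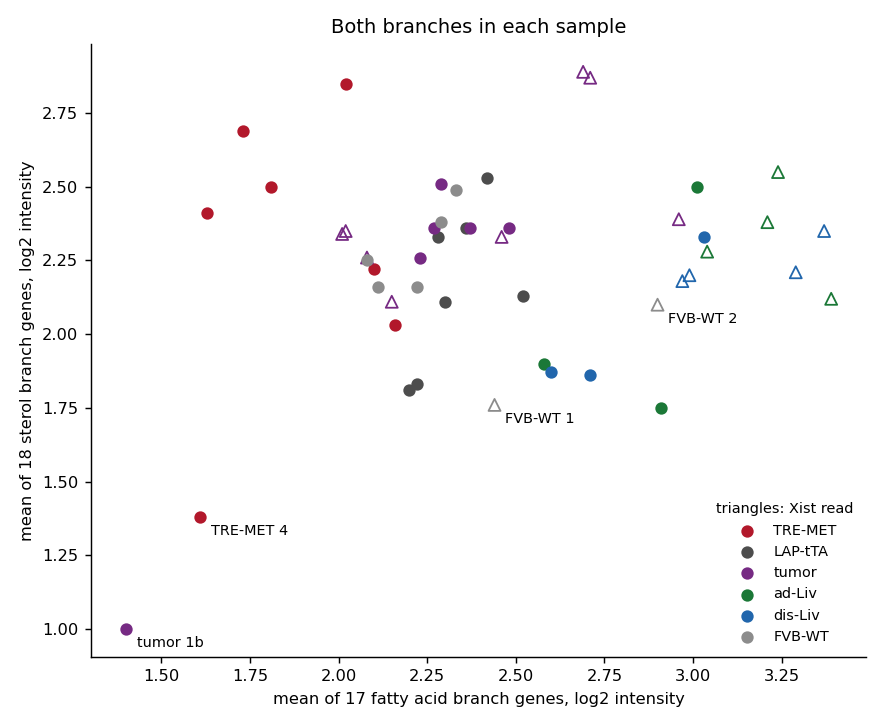
Mean log2 intensity of the 17 fatty acid genes (horizontal) and the 18 sterol genes (vertical) in each of 49 samples, coloured by group, with triangles for samples that read Xist. TRE-MET livers lie to the left of every LAP-tTA liver, ad-Liv and dis-Liv lie to the right of every LAP-tTA liver with FVB-WT 2 and 3 tumors among them, and tumor 1b and TRE-MET 4 lie lowest.

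The first comparison sets young MET liver against young control liver. The groups differ in the MET transgene, in age (6 and 7 weeks) and, by the methods, in transactivator copies (1 and 2), and the parts of these cannot be told apart. Cd36, a membrane protein that takes up long-chain fatty acids, was the member furthest apart. It lay at -1.29 to -0.57 in TRE-MET livers (median -0.82), against 0.69 to 1.47 in LAP-tTA livers (median 0.92). No liver of one group reached the other, and Cd36 was 3.67-fold lower (a change of -1.88 ± 0.13 on the log2 scale, with its SE, at a limma adjusted p of 8.72e-09). Plin2, which coats lipid droplets, lay at 3.97 to 4.39 in TRE-MET livers and at 4.42 to 4.76 in LAP-tTA livers. It too was lower without overlap, by less (log2 change -0.40 ± 0.08, adjusted p = 0.0021).

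Enzymes that lengthen and desaturate fatty acids moved with them. Scd1, which puts the first double bond into stearate and palmitate, lay at 4.23 to 5.95 in TRE-MET livers (median 4.60), against 5.76 to 6.25 in LAP-tTA livers (median 6.02), and was 1.99-fold lower (log2 change -0.995 ± 0.22, adjusted p = 0.0080). The second probe set of Scd1, dimmer at a mean of 3.47, was called lower too and changed by -1.8. TRE-MET samples 6 and 7, at 5.95 and 5.84, reached the LAP-tTA range and the other 5 did not. Elovl6, which elongates palmitate, lay at 0.77 to 2.18 in TRE-MET livers (median 1.52) and at 2.17 to 2.87 in LAP-tTA livers (median 2.47), and was 1.93-fold lower (adjusted p = 0.0015). Only TRE-MET sample 7 touched the LAP-tTA range. Scd2, the desaturase that prevails outside the liver, and Elovl5, which elongates polyunsaturated fatty acids, had log2 changes of 0.25 and -0.14 and were not called.

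Of the 5 synthesis enzymes 3 were called lower. Me1, the malic enzyme that supplies NADPH, lay at 0.05 to 1.81 in TRE-MET livers (median 0.39), against 1.28 to 2.19 in LAP-tTA livers (median 1.77), and was 2.0-fold lower (adjusted p = 0.018). TRE-MET samples 6 and 7 again read within the LAP-tTA range, at 1.81 and 1.78. Fasn, the fatty acid synthase, lay at 1.94 to 3.04 in TRE-MET livers (median 2.97) and at 3.0 to 3.6 in LAP-tTA livers (median 3.27), and was 1.59-fold lower (adjusted p = 0.027). Samples 1, 2 and 4 held the low Fasn values and the rest lay at the edge of the LAP-tTA range. Acaca, which makes malonyl-CoA in the cytosol, had a log2 change of -0.38 ± 0.10 (adjusted p = 0.020), and its 3 dimmer probe sets were not called, at -0.35 to 0.16. Acly, which cleaves citrate to acetyl-CoA, and Acacb, the carboxylase that sits at mitochondria, had log2 changes of -0.25 and -0.41 and were not called.

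Among the regulators, Thrsp, a lipogenic protein induced by thyroid hormone and carbohydrate, lay at 3.59 to 5.74 in TRE-MET livers (median 4.25), against 5.41 to 5.80 in LAP-tTA livers (median 5.64), and was 1.87-fold lower (log2 change -0.90 ± 0.26, adjusted p = 0.037). Samples 1, 2, 3 and 5 lay at 3.59 to 4.25 and samples 4, 6 and 7 at 5.20 to 5.74. Srebf1 differed by 0.16 (95% interval -0.08 to 0.40) and Mlxipl by -0.32 (adjusted p = 0.071), so neither transcript was called. Mlxipl was called lower once samples 4, 6 and 7 were left out (log2 change -0.52, adjusted p = 0.00041). Gpam, Dgat2 and Pnpla3, which act in triglyceride synthesis and droplet turnover, had log2 changes of -0.01, 0.18 and -0.15.

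Sterol genes of the young livers depended on which TRE-MET livers were kept. Over all 7, Srebf2 differed by 0.14, Insig1 by 0.31 and Insig2 by 0.18, none called, and Hsd17b7, a reductase of the late pathway, was the single gene called, at 2.20 to 2.95 in TRE-MET livers and 2.76 to 3.28 in LAP-tTA livers (log2 change -0.41 ± 0.11, adjusted p = 0.022). With samples 4, 6 and 7 left out, 11 of 18 were called higher and 0 lower, where 8.28% of all genes and 14.7% of genes as bright as the members were called higher in the same fit. Sqle, the squalene epoxidase, lay at 2.69 to 3.22 in samples 1, 2, 3 and 5, against 1.30 to 2.45 in LAP-tTA livers (log2 change 0.96, adjusted p = 0.0019). Dhcr7, which makes the last reduction to cholesterol, lay at 2.02 to 2.62 in those 4 livers, against 0.89 to 1.73 (log2 change 0.95, adjusted p = 0.00024). Both genes stood above every LAP-tTA liver there. Fdps, Lss, Mvk, Cyp51, Idi1, Hmgcs1, Nsdhl, Srebf2 and Insig2 were the other genes called in that fit, with log2 changes of 0.36 to 0.88. With samples 1, 2, 3 and 5 left out, 0 sterol genes were called higher and 2 lower, Hsd17b7 and Sc5d, and the fatty acid genes gave 3 calls lower (Acaca, Elovl6 and Cd36) and 1 higher (Dgat2), where 3.03% of all genes were called lower and 2.41% higher. With sample 4 alone left out, Idi1 and Dhcr7 were called higher and Hsd17b7 lower, and 9 fatty acid genes lower, where 4.63% of all genes were called higher and 5.26% lower. The split was chosen on clock and neutrophil genes with these values known. The clock gene Arntl lay at -0.06 to 0.31 in samples 1, 2, 3 and 5, at -2.38 to -1.69 in samples 4, 6 and 7 and at -1.59 to -0.91 in LAP-tTA livers, and the acute phase gene Saa1 lay at 6.49 to 6.58, 3.52 to 5.20 and 1.82 to 5.64 in the same order. Hour of sampling, feeding and inflammation were not given for single mice, and their part in either branch was not tested.

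**Figure D3:**
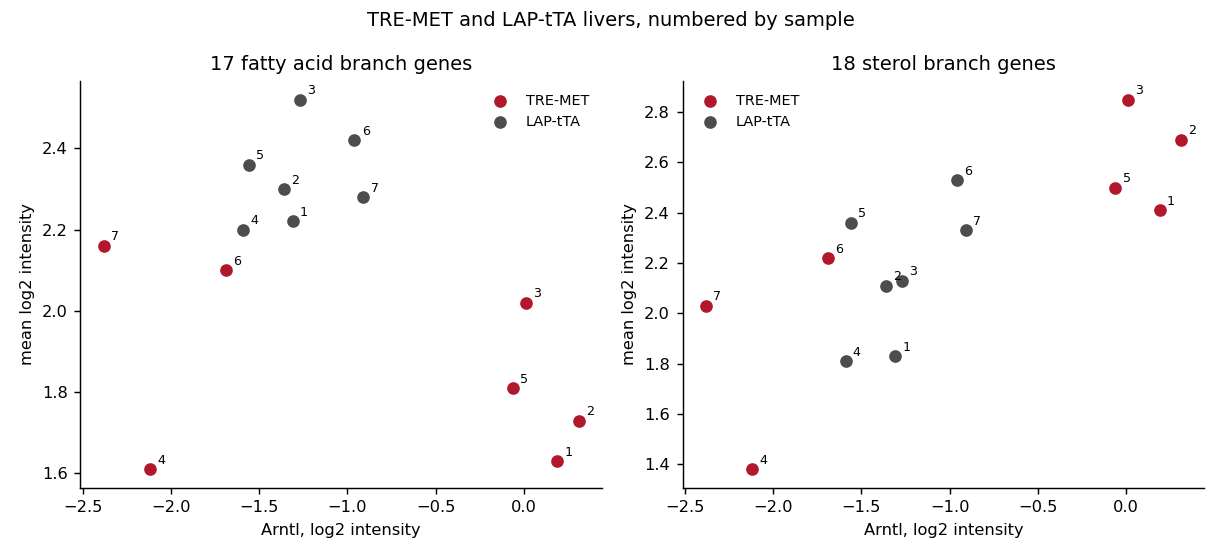
Mean of the fatty acid genes (left) and of the sterol genes (right), as mean log2 intensity, against the clock gene Arntl (log2 intensity) in 7 TRE-MET and 7 LAP-tTA livers, numbered by sample. TRE-MET livers lie under the LAP-tTA livers in the fatty acid panel at either end of the Arntl range, while in the sterol panel samples 1, 2, 3 and 5 lie high and sample 4 lies low.

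At 14 weeks liver of MET mice outside the tumor was set against FVB-WT liver of the same age. By the labels these groups differ in the MET transgene and in the LAP-tTA transactivator, and their parts cannot be told apart. By the methods, which describe the older controls as the transactivator strain, the groups would differ in its copies instead. The fatty acid branch was higher in dis-Liv and in ad-Liv. Both comparisons share the FVB-WT livers, and dis-Liv and ad-Liv come from the same mice, so they are given side by side and not as separate support. Pnpla3, a lipid droplet acyltransferase and lipase whose transcript follows SREBP-1c and ChREBP, had the largest change. It lay at -0.57 to 2.61 in ad-Liv (median 1.83) and -0.75 to 2.58 in dis-Liv (median 1.55), against -3.13 to 0.49 in FVB-WT livers (median -2.06). It was 8.86-fold higher in ad-Liv (log2 change 3.15 ± 0.54, adjusted p = 0.0018) and 7.57-fold higher in dis-Liv (2.92 ± 0.55, adjusted p = 0.0038). MET mice 1 and 2 gave the low values of both liver groups, and the 2 FVB-WT livers that read Xist, at -0.90 and 0.49, were the highest controls.

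Scd2 lay at -0.59 to 1.96 in ad-Liv (median 1.01) and -1.27 to 1.38 in dis-Liv (median 0.44), against -1.37 to -0.85 in FVB-WT livers (median -1.10). It was 3.51-fold higher in ad-Liv, without overlap (adjusted p = 0.0037), and 2.64-fold higher in dis-Liv (adjusted p = 0.017). The MET mice that read Xist held the high values, 1.01 to 1.96 in ad-Liv and 0.44 to 1.38 in dis-Liv. Within Xist-reading mice alone (4 against 2) the log2 change of dis-Liv was 2.27 (adjusted p = 0.00063), and within Eif2s3y-reading mice (3 against 5) it was 0.35 and not called (adjusted p = 0.43). Scd1 lay at 6.22 to 6.44 in ad-Liv and 6.19 to 6.34 in dis-Liv, against 5.64 to 6.03 in FVB-WT livers. It was higher without overlap in both (log2 changes 0.51 ± 0.07 and 0.44 ± 0.07, adjusted p = 0.00037 and 0.00092). Its second probe set was also called higher and changed by more, 1.47 and 1.28.

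Cd36 lay at 0.20 to 1.53 in ad-Liv and 0.21 to 1.53 in dis-Liv, against -1.05 to 0.66 in FVB-WT livers, and was 2.49-fold and 2.45-fold higher (adjusted p = 0.0098 and 0.0079). FVB-WT samples 1 and 2, at 0.66 and 0.53, were the only controls above 0, and Cd36 lay at -1.05 to -0.44 in the other 5. Within Eif2s3y-reading mice the dis-Liv change was 1.51 (adjusted p = 0.00025), and within Xist-reading mice it was 0.41 (adjusted p = 0.45). Elovl6 lay at 2.39 to 4.36 in ad-Liv (median 3.14) and 2.44 to 4.28 in dis-Liv (median 3.12), against 1.61 to 3.78 in FVB-WT livers (median 1.93), and was 2.13-fold and 2.17-fold higher (adjusted p = 0.048 and 0.0499). FVB-WT sample 2, at 3.78, was the one control inside the MET range, and the next control lay at 2.09.

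The synthesis enzymes followed. Fasn lay at 3.68 to 4.55 in ad-Liv (median 4.3) and 3.63 to 4.54 in dis-Liv (median 4.23), against 2.73 to 4.18 in FVB-WT livers (median 3.29), and was 1.9-fold and 1.74-fold higher (adjusted p = 0.0029 and 0.014). FVB-WT sample 2 again held the highest control value. Acacb lay at 0.31 to 0.99 in ad-Liv and 0.24 to 1.62 in dis-Liv, against -0.44 to 0.52 in FVB-WT livers, with log2 changes of 0.77 ± 0.13 and 0.83 ± 0.18 (adjusted p = 0.0021 and 0.012). Acaca changed by 0.69 in ad-Liv and 0.56 in dis-Liv on the log2 scale (adjusted p = 0.012 and 0.016). Acly changed by 0.56 and 0.50 and was called in ad-Liv (adjusted p = 0.026), and the difference between ad-Liv and dis-Liv at Acly was itself not called. Me1 was the synthesis enzyme below the controls, with log2 changes of -0.53 and -0.43, not called.

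Of the regulators, Thrsp lay at 5.15 to 5.92 in ad-Liv and 5.16 to 5.98 in dis-Liv, against 4.15 to 5.93 in FVB-WT livers, and was 1.81-fold and 1.88-fold higher (adjusted p = 0.020 and 0.018). The 5 controls that read Eif2s3y lay at 4.15 to 4.66, under every liver of the MET mice, and the 2 that read Xist at 5.38 and 5.93 lay among them. Srebf1 lay at 2.95 to 3.66 in ad-Liv and 3.11 to 3.69 in dis-Liv, against 2.38 to 3.58 in FVB-WT livers, and differed from them by 0.52 ± 0.17 in ad-Liv (adjusted p = 0.075) and by 0.59 ± 0.16 in dis-Liv (adjusted p = 0.045). Mlxipl differed by 0.31 and 0.21, not called. Plin2 went the other way in dis-Liv (log2 change -0.33 ± 0.08, adjusted p = 0.028) and differed by -0.28 in ad-Liv. Gpam, Dgat2 and Elovl5 had log2 changes of -0.16 to 0.36 in both, not called.

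The sterol genes of these livers stayed near the controls. Srebf2 differed by 0.11 in ad-Liv and 0.05 in dis-Liv, Insig1 by 0.23 and 0.20, and Insig2 by -0.71 and -0.46, none called, and the 95% interval of Srebf2 in dis-Liv ran from -0.13 to 0.23. Insig2, an SREBP anchor whose liver transcript is lowered by insulin, lay at 2.77 and 3.18 in the FVB-WT livers that read Xist and at 4.25 to 4.52 in the other 5, while MET mice 3 to 6 lay at 2.62 to 2.94 in ad-Liv. Hsd17b7 lay at 1.91 to 2.45 in dis-Liv, against 2.13 to 2.93 in FVB-WT livers (log2 change -0.46 ± 0.13, adjusted p = 0.045). The sterol genes called in dis-Liv differed with the split. Within Xist-reading mice, with 2 controls, Fdft1, Sqle and Lss were called higher (log2 changes 0.63, 0.97 and 0.62), where 1.65% of all genes were called higher. Within Eif2s3y-reading mice Mvk and Idi1 were called lower (-0.52 and -0.73), where 1.35% of all genes were called lower. These are different genes, so the calls do not show a gene that turned.

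These comparisons rest on few controls. Within Eif2s3y-reading mice 7 fatty acid genes were called higher in dis-Liv and 9 in ad-Liv, where 1.45% and 1.58% of all genes were called higher. Within Xist-reading mice the counts were 3 and 4, where 1.65% and 2.9% of all genes were, and Pnpla3 was called in all 4 fits. With the ratio of Eif2s3y to Xist as a covariate 10 were called higher in dis-Liv and 11 in ad-Liv (3.42% and 4.55% of all genes). Without FVB-WT samples 5 and 7 only Scd1 and Pnpla3 of the fatty acid genes were called in dis-Liv, and 7 genes in ad-Liv (1.93% and 3.24% of all genes called higher). Fasn then differed by 0.91 in ad-Liv (adjusted p = 0.015) and by 0.78 in dis-Liv (adjusted p = 0.052, not called). FVB-WT samples 1 and 2 also read Dbp at 2.67 and 2.91, against 0.22 to 0.73 in the other 5. Xist and the clock thus moved together among the controls, and their parts cannot be told apart. The medians also differed between the compared groups, with Dbp at 2.38 in dis-Liv and 2.47 in ad-Liv, against 0.42 in FVB-WT livers. Arntl had medians of -2.49 and -2.55, against -0.28. Among Eif2s3y-reading mice Dbp lay at 0.78 to 2.27 in dis-Liv and 0.36 to 2.38 in ad-Liv, so that split did not hold the clock even. Of 14 clock output genes 0 were called higher and 1 lower in dis-Liv, and 1 and 1 in ad-Liv. The shares of all genes were 3.33% and 3.51% in dis-Liv, and 4.72% and 4.46% in ad-Liv. The part of the clock was not tested. Pck1, the gluconeogenic enzyme, was higher in dis-Liv (log2 change 1.19, adjusted p = 5.57e-06).

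Markers of other cells were read beside these genes. Of all genes 3.33% were called higher and 3.51% lower in dis-Liv, and 4.72% and 4.46% in ad-Liv. In dis-Liv 3 of 6 stellate cell and fibroblast genes were called lower and 0 higher (Lrat, Dcn and Col3a1), with a summed intensity of 15.9 to 22 in dis-Liv and 20.5 to 26.6 in FVB-WT livers, and 1 was lower in ad-Liv. Of 6 lymphocyte and neutrophil genes 2 were called higher in dis-Liv and 3 in ad-Liv. S100a8 among them lay at -1.77 to -0.34 in ad-Liv and -1.8 to 0.22 in dis-Liv, against -2.33 to -2.14 in FVB-WT livers, without overlap. Spp1 was the 1 of 5 cholangiocyte genes called, lower in both, and Lyve1 led the endothelial genes called higher (1 of 7 in dis-Liv, 2 of 7 in ad-Liv). Of 7 hepatocyte genes 1 was called higher in dis-Liv and 2 in ad-Liv, and of 9 Kupffer cell and macrophage genes 0 were called in dis-Liv and 1, lower, in ad-Liv. Their part in the fatty acid changes was not tested.

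**Figure D4:**
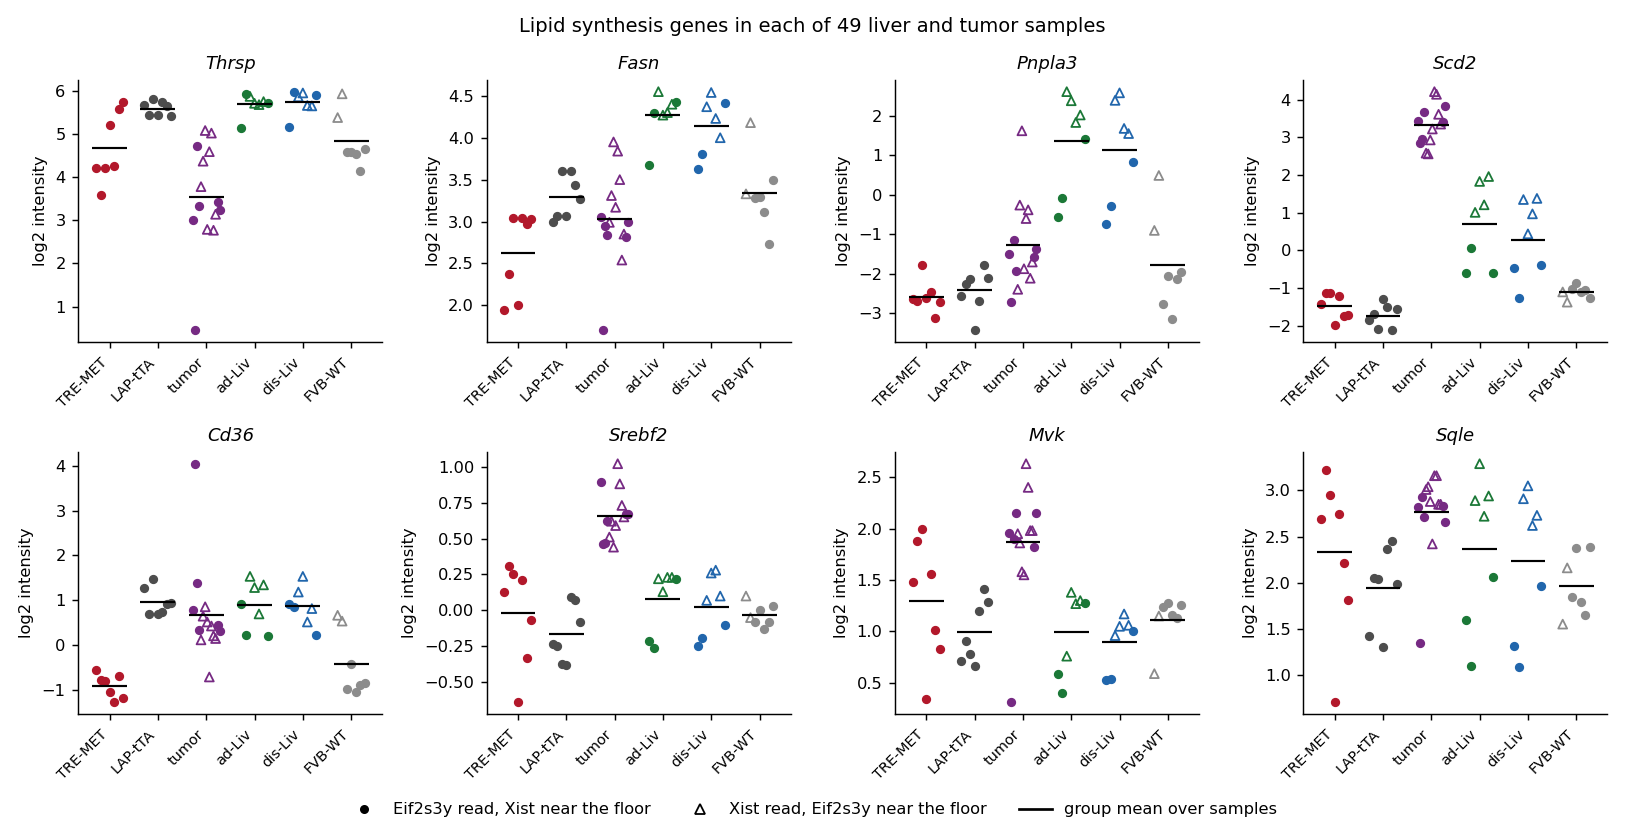
Log2 intensity of 8 genes in each of 49 samples by group, with a bar for the mean over the samples, filled circles for samples that read Eif2s3y and open triangles for samples that read Xist. Thrsp, Fasn, Pnpla3 and Cd36 are higher in ad-Liv and dis-Liv than in most FVB-WT livers, Scd2 and Srebf2 are highest in the tumors, and tumor 1b is the lone low or high tumor point of Thrsp, Fasn, Cd36, Mvk and Sqle.

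The direction of the fatty acid branch in young and older MET liver was compared directly, as the change from LAP-tTA to TRE-MET less the change from FVB-WT to dis-Liv, with age and, by the labels, genotype differing between the pairs. In this interaction 10 of 17 fatty acid genes were called lower and 0 higher, where 5.14% and 4.95% of all genes were called lower and higher. Of 18 sterol genes 0 were called. An unadjusted limma p under 0.05 was found for 5 sterol genes and for 4823 of all 21517 genes. Without TRE-MET samples 4, 6 and 7, 7 sterol genes were called higher and 10 members lower, where 6.09% and 5.83% of all genes were. Those 7 were Hmgcs1, Mvk, Idi1, Fdps, Cyp51, Nsdhl and Dhcr7, with interactions of 0.65 to 1.1, and without sample 4 alone Idi1 and Dhcr7 were called higher (0.87 and 0.88). Cd36 had an interaction of -3.17 ± 0.32 (log2, SE, adjusted p = 1.4e-08), made of -1.88 in young liver less 1.29 in older liver. Scd1 (-1.44), Acaca (-0.94), Fasn (-1.46), Elovl6 (-2.06) and Thrsp (-1.81) followed, with adjusted p-values from 0.00024 to 0.0010. These 6 genes were called lower in TRE-MET and higher in dis-Liv. Pnpla3 had an interaction of -3.07 (adjusted p = 0.0014) with no call in young liver, where it averaged -2.57 in TRE-MET livers and -2.42 in LAP-tTA livers. Srebf1 (-0.42), Srebf2 (0.09), Insig1 (0.11) and Insig2 (0.63) were not called, and Mlxipl was (-0.53, adjusted p = 0.011). With older mice limited to those that read Eif2s3y, as all young mice did, 8 members were called lower and 2 higher, Insig2 and Idi1, where 4.13% and 3.6% of all genes were.

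The tumors were compared with the liver of the same 7 mice. The fatty acid branch was lower and the sterol branch was split. Against dis-Liv, where 16.7% of all genes were called higher and 16.3% lower, 12 fatty acid genes were called lower and 2 higher, and 5 sterol genes higher and 3 lower. Against ad-Liv, where 16.7% were called higher and 24% lower, the counts were 12 lower and 2 higher for fatty acid genes and 5 higher and 2 lower for sterol genes. Members are brighter than most genes, and among the 7411 genes at least as bright as the dimmest member 28.4% were called higher and 24% lower against dis-Liv, and 30.2% and 21.6% against ad-Liv. The sterol counts therefore lay near the background, and the fatty acid count in the lower direction lay above it.

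All 3 regulators of the fatty acid branch were lower in tumors, by the mean of each mouse's 2 tumors, than in either liver piece of that mouse. Srebf1 lay at 1.08 to 2.64 in tumors (median 2.03), against 2.95 to 3.66 in ad-Liv and 3.11 to 3.69 in dis-Liv. No tumor reached a liver piece, and Srebf1 was 2.40-fold lower than in ad-Liv and 2.51-fold lower than in dis-Liv (-1.26 ± 0.14 and -1.33 ± 0.13 in log2, adjusted p = 1.01e-05 and 1.36e-06). Mlxipl lay at -0.63 to 2.01 in tumors (median 1.51), against 1.96 to 2.76 in ad-Liv and 2.04 to 2.46 in dis-Liv, and was 2.0-fold and 1.87-fold lower (adjusted p = 0.00043 for both). Tumor 4a, at 2.01, was the tumor that reached the ad-Liv range. Without tumor 1b, at -0.63, the changes were -0.84 and -0.74 and the calls stood. Thrsp lay at 0.45 to 5.08 in tumors (median 3.38), against 5.15 to 5.92 in ad-Liv and 5.16 to 5.98 in dis-Liv, and was 4.39-fold and 4.56-fold lower (adjusted p = 0.00027 and 0.00017). Every tumor lay under every liver piece at Thrsp, and the tumors themselves spread over more than 4 log2 units.

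The 5 synthesis enzymes were all called lower. Acacb lay at -3.25 to 0.45 in tumors (median -1.46), against 0.31 to 0.99 in ad-Liv and 0.24 to 1.62 in dis-Liv, and was 4.27-fold and 4.46-fold lower (adjusted p = 0.00020 and 0.00022). The 2 tumors of mouse 5 and tumor 4a were the tumors above 0. Acly lay at 1.18 to 2.33 in tumors, against 2.43 to 3.07 in ad-Liv and 2.36 to 3.22 in dis-Liv, and was 2.50-fold and 2.40-fold lower without overlap (adjusted p = 1.85e-06 and 4.22e-06). Fasn lay at 1.70 to 3.95 in tumors (median 3.0), against 3.68 to 4.55 in ad-Liv and 3.63 to 4.54 in dis-Liv, and was 2.36-fold and 2.15-fold lower (adjusted p = 0.00014 and 0.00042). Tumors 4a and 5a, at 3.95 and 3.84, reached the liver ranges. Its mean in tumors, 3.04 ± 0.46 (SD), was close to that of FVB-WT livers, 3.35 ± 0.44. Acaca had log2 changes of -0.94 and -0.81, lower in 7 of 7 mice. Me1 had -0.53 and -0.62 (adjusted p = 0.042 and 0.0498), lower in 6 of 7 mice, and its second probe set differed by 0.09 and 0.06, not called.

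The desaturases parted. Scd2 lay at 2.56 to 4.21 in tumors (median 3.38), against -0.59 to 1.96 in ad-Liv, -1.27 to 1.38 in dis-Liv and -1.37 to -0.85 in FVB-WT livers. It was 6.23-fold higher than in ad-Liv, 8.28-fold higher than in dis-Liv and 21.8-fold higher than in FVB-WT livers (log2 changes 2.64 ± 0.39, 3.05 ± 0.38 and 4.45 ± 0.18, adjusted p = 0.00015, 1.74e-05 and 3.47e-11), and every tumor stood above every liver. Scd1, the liver form, lay at 4.18 to 6.24 in tumors (median 5.65), against 6.22 to 6.44 in ad-Liv and 6.19 to 6.34 in dis-Liv, and was 1.6-fold and 1.53-fold lower (adjusted p = 0.0023 and 0.0044). Tumor 4a, at 6.24, was the tumor inside the liver ranges. The second Scd1 probe set was again called lower and changed by more, -1.38 and -1.19 on the log2 scale. Elovl5 lay at 3.29 to 4.67 in tumors, against 4.77 to 5.23 in ad-Liv and 4.63 to 5.16 in dis-Liv (log2 changes -0.79 ± 0.10 and -0.73 ± 0.10), and Elovl6 had -0.83 and -0.85, lower in 6 of 7 mice. The exception at Elovl6 was mouse 2 in dis-Liv and in ad-Liv alike.

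Among storage genes, Pnpla3 lay at -2.72 to 1.62 in tumors (median -1.54), against -0.57 to 2.61 in ad-Liv and -0.75 to 2.58 in dis-Liv, and was 6.28-fold and 5.37-fold lower (adjusted p = 0.00063 and 0.0013). Tumor 4a, at 1.62, stood 3.49 above tumor 4b of the same mouse, the widest gap between paired tumors at any member. Plin2 lay at 4.16 to 5.66 in tumors (median 4.90), against 3.90 to 4.44 in ad-Liv and 3.95 to 4.40 in dis-Liv, and was 1.62-fold and 1.68-fold higher (adjusted p = 0.0017 and 0.00072). Mouse 5 gave the 2 lowest tumors, at 4.16 and 4.18. Cd36, at -0.72 to 4.05 in tumors, had log2 changes of -0.21 and -0.19, not called, and tumor 1b held its 4.05 while the next tumor lay at 1.39. Dgat2 was lower in 7 of 7 mice by 0.46 and 0.45, not called. It was called with the mouse as a block (adjusted p = 0.015 and 0.016) and without tumor 1b, where the changes were -0.31 and -0.30 (adjusted p = 0.029 and 0.035). Gpam differed by -0.15 and -0.04.

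Sterol regulators moved in opposite directions. Srebf2 lay at 0.44 to 1.02 in tumors (median 0.64), against -0.26 to 0.23 in ad-Liv, -0.25 to 0.28 in dis-Liv and -0.13 to 0.10 in FVB-WT livers. Every tumor stood above every liver, and Srebf2 was 1.49-fold, 1.55-fold and 1.61-fold higher (adjusted p = 0.00035, 8.88e-05 and 1.17e-06). Insig1, itself a target of the SREBPs, lay at 3.22 to 5.04 in tumors (median 4.18), against 4.93 to 5.29 in ad-Liv and 4.80 to 5.29 in dis-Liv, and was 1.77-fold and 1.73-fold lower (adjusted p = 0.00032 and 0.00042). The tumors of mouse 5, at 4.93 and 5.04, reached the liver range. Insig2 lay at 1.9 to 3.31 in tumors, against 2.62 to 4.22 in ad-Liv and 3.04 to 4.09 in dis-Liv (log2 changes -0.56 and -0.81, adjusted p = 0.061 and 0.0037).

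Of the 6 mevalonate and isoprenoid genes 2 were called higher. Mvk, the mevalonate kinase, lay at 0.31 to 2.63 in tumors (median 1.96), against 0.40 to 1.38 in ad-Liv and 0.53 to 1.17 in dis-Liv, and was 1.83-fold and 1.96-fold higher (adjusted p = 0.0036 and 0.00043). Tumor 1b gave the 0.31 and the other 13 tumors lay at 1.55 to 2.63, above every liver piece. Hmgcs1, the cytosolic HMG-CoA synthase, lay at 2.60 to 3.82 in tumors (median 3.30), against 2.19 to 3.25 in ad-Liv and 2.23 to 2.77 in dis-Liv, with log2 changes of 0.58 ± 0.15 and 0.70 ± 0.11 (adjusted p = 0.0080 and 0.00020). Pmvk, Mvd, Idi1 and Fdps, the next enzymes in the chain, had log2 changes of -0.43, -0.21, 0.42 and 0.17 against ad-Liv, and of -0.33, -0.20, 0.46 and 0.45 against dis-Liv, none called. Mouse 5 held the highest tumors at Pmvk (2.20 and 2.27) and Mvd (0.89 and 1.15).

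From squalene to cholesterol, Cyp51, the lanosterol demethylase, and Nsdhl, which removes a methyl group in the next steps, were called higher (log2 changes 0.56 and 0.57 against ad-Liv, 0.65 and 0.58 against dis-Liv), and Sc5d, the lathosterol oxidase, was called lower (-0.63 against both). Sqle lay at 1.34 to 3.16 in tumors (median 2.85), against 1.10 to 3.29 in ad-Liv, 1.09 to 3.06 in dis-Liv and 1.55 to 2.40 in FVB-WT livers. It was called against FVB-WT livers only, where it was 1.74-fold higher (adjusted p = 0.0016), and the 13 tumors other than 1b lay closely at 2.42 to 3.16 while the liver pieces of MET mice 1 and 2 lay at 1.09 to 1.59. Fdft1 and Lss were likewise called against FVB-WT livers (log2 changes 0.64 and 0.59). Dhcr7 and Stard4, which carries sterol between membranes, were called in none of these 3 comparisons.

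Tumor 1b weighed on the sterol counts. Without it 10 sterol genes were called higher and 3 lower than in dis-Liv, 7 higher and 2 lower than in ad-Liv, and 9 higher and 3 lower than in FVB-WT livers. Of genes as bright as the members 30%, 32.2% and 30.3% were called higher in these fits, and 24.2%, 22.1% and 26.9% lower. The fatty acid genes gave 13 lower and 2 higher against both liver groups. A further fit took the mouse as a replicate block, since the numbers were read as marking the same animals. In it 8 sterol genes were higher and 3 lower than in dis-Liv, and 5 higher and 5 lower than in ad-Liv. Of equally bright genes 29.3% and 29.4% were called higher there and 24.7% and 21.6% lower. Within each of the 7 mice the tumor mean lay above dis-Liv for 7 sterol genes (Srebf2, Hmgcs1, Mvk, Idi1, Lss, Cyp51 and Nsdhl) and below it for 2 (Insig1 and Insig2). For fatty acid genes it lay below dis-Liv in all 7 mice for 11 and above it for 2 (Scd2 and Plin2). Against ad-Liv 3 sterol genes were higher in all 7 mice (Srebf2, Mvk and Cyp51) and 2 lower (Insig1 and Sc5d), with 11 fatty acid genes lower and 2 higher. The share of all genes with the same sign in all 7 mice was not counted.

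**Figure D5:**
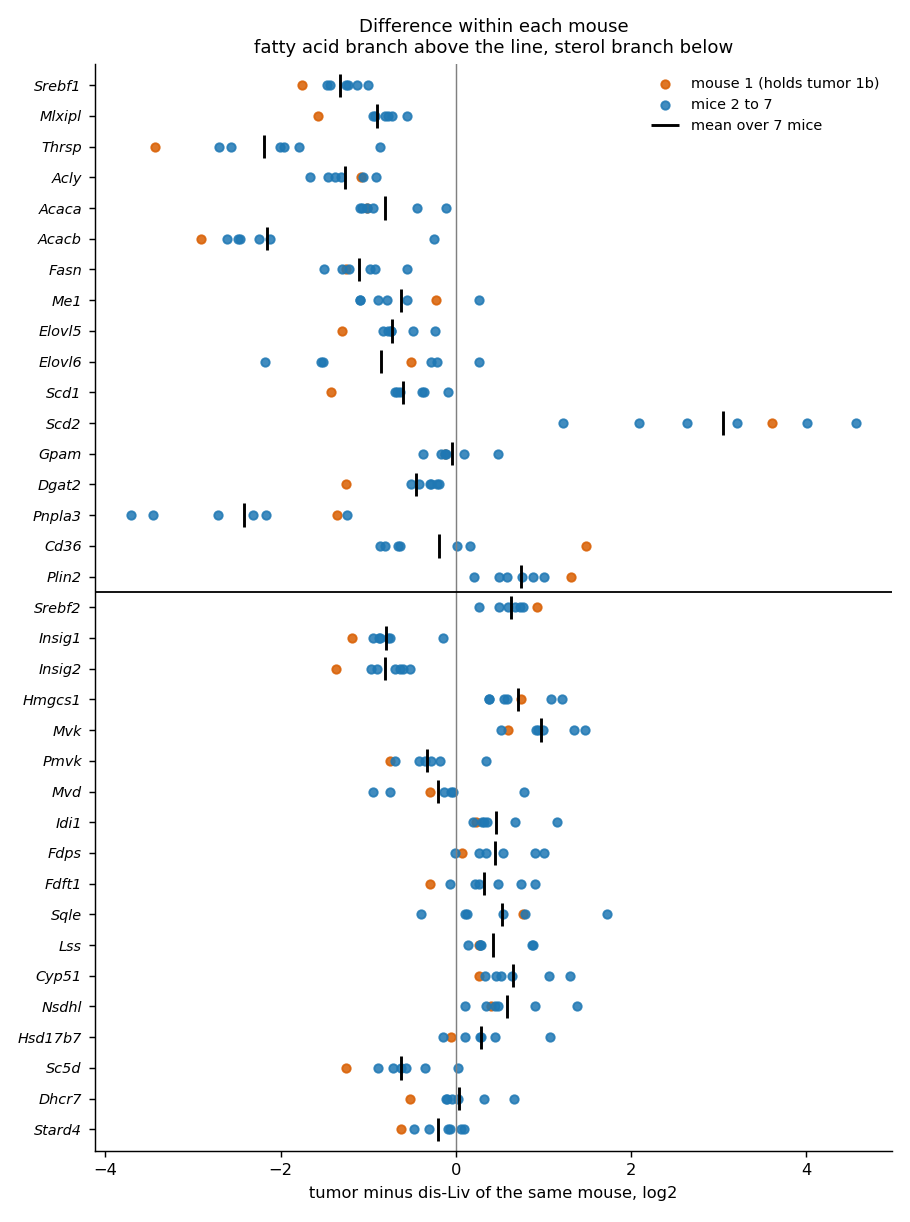
Tumor minus dis-Liv of the same mouse (log2) for 35 genes, 1 point per mouse, orange for mouse 1 and a bar for the mean over 7 mice. Most fatty acid genes above the line lie left of 0 in all 7 mice, Scd2 and Plin2 lie right, and most enzymes of the sterol branch lie right of 0 by less than 2.

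Against FVB-WT livers, where 17.1% of all genes were called higher and 18% lower, tumors had 7 fatty acid genes called lower and 3 higher, and 6 sterol genes higher and 3 lower. By the labels the tumors and FVB-WT livers differ in the LAP-tTA transactivator as well as in the MET transgene. The fatty acid genes called lower were the regulators Srebf1 (-0.74), Mlxipl (-0.69) and Thrsp (-1.28), and Acly (-0.77), Acacb (-1.33), Me1 (-1.05) and Elovl5 (-0.89). Me1 lay at -0.29 to 1.02 in tumors, against 1.31 to 1.89 in FVB-WT livers, and Elovl5 at 3.29 to 4.67, against 5.01 to 5.36, both without overlap (adjusted p = 7.46e-06 and 2.92e-06). Fasn (-0.31), Acaca (-0.25), Scd1 (-0.17) and Elovl6 (0.26) were not called, and they were called lower against the liver of the same mice. These comparisons share the tumors, and the numbers of mice that read Xist, 4 of 7 and 2 of 7, differed between tumors and FVB-WT livers. The sterol counts differed between the splits. Within Xist-reading mice (4 against 2) 6 sterol genes were called higher and 0 lower. Within Eif2s3y-reading mice (3 against 5) 1 was called higher and 5 lower. Among equally bright genes 12.4% and 23.6% were called higher in these 2 fits, and 12.6% and 21.9% lower. What these counts follow was not tested. Insig2 had the largest sterol change (-1.27 ± 0.26, adjusted p = 0.0012), at 1.9 to 3.31 in tumors and 2.77 to 4.52 in FVB-WT livers. Cd36 was higher by 1.11 (adjusted p = 0.030) and by 0.87 without tumor 1b, and its difference was -0.325 with Xist-reading mice alone (not called).

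Markers of other cell types and states were compared between tumor and dis-Liv as well. There 16.7% of all genes were called higher and 16.3% lower, and 28.4% and 24% of genes as bright as the members. The proliferation genes were all called higher in tumors (7 of 7), and Mki67 lay at -1.43 to 1.09 in tumors, against -3.62 to -0.73 in dis-Liv. Of 7 hepatocyte genes 4 were lower than in dis-Liv and 0 higher, with a summed intensity of 257 to 423 in tumors and 443 to 477 in dis-Liv, and Cps1 fell by 3.67 while Alb was not called. Of 9 Kupffer cell and macrophage genes 4 were lower and 1 higher (sum 5.74 to 41.3 in tumors, 11.2 to 26.7 in dis-Liv), of 7 endothelial genes 3 lower and 2 higher (6.04 to 21.1 and 13.7 to 17.4), and of 6 stellate cell and fibroblast genes 2 lower and 3 higher (4.81 to 233 and 15.9 to 22). Of 7 adipose genes 3 were lower (Retn, Lipe and Car3) and 0 higher (14.2 to 63.8 and 46.1 to 77.5), most of that sum being Car3, at 3.76 to 5.98 in tumors and 5.5 to 6.26 in dis-Liv. The defining genes Adipoq and Plin1 lay at -5.24 to -4.14 in tumors and -5.38 to -3.78 in dis-Liv, near the floor. In bulk tissue fewer cells of a type and less RNA per cell cannot be told apart, and the part of cell composition in these changes was not tested.

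Between ad-Liv and dis-Liv 0 of the 35 genes were called, and 0% of all genes were called higher and 0% lower by limma. At an unadjusted p under 0.05, 0 members and 2103 of all genes passed. This fit did not pair the pieces by mouse, so its p-values and intervals also hold the spread between mice. With the mouse as a block, 0 fatty acid and 0 sterol genes were called at an adjusted p under 0.05, and 0% of all genes. The log2 changes of the members ran from -0.26 (Insig2) to 0.41 (Scd2), and 29 of 35 were above 0. Of all 21517 genes 13234 were above 0, with a median of 0.03. In the unpaired fit the 95% interval ran from -0.13 to 0.19 for Insig1, from -0.32 to 0.20 for Srebf1, from -0.17 to 0.28 for Srebf2 and from -0.12 to 0.32 for Mlxipl. Pnpla3 and Sqle varied more between mice than between these pieces, with mice 1 and 2 low in both.

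Other genes of the same routes were read from lists chosen with earlier results of these data known. Beside the counts here and in the next paragraph, 5.04% of all genes were called lower and 4.32% higher in TRE-MET livers. The shares were 3.51% and 3.33% in dis-Liv, and 16.3% and 16.7% in tumors against dis-Liv. Among genes as bright as the members the tumor shares were 24% lower and 28.4% higher. Of 18 measured genes that also serve fatty acid synthesis, 8 were called lower and 1 higher in TRE-MET livers, among them Fads2 (-0.63) and Fads1 (-0.39), the desaturases of polyunsaturated fatty acids, and Acsl5 (-0.36), an acyl-CoA synthetase. In dis-Liv 2 were higher and 2 lower, with Acsl3 at 0.99 and Fads2 at 0.62, and in tumors against dis-Liv 9 were lower and 2 higher, with the elongase Elovl2 at -1.55 and Mid1ip1, a partner of acetyl-CoA carboxylase, at -0.89. Acss2, which makes acetyl-CoA from acetate, fell by 1.86 in tumors against ad-Liv. Of 20 triglyceride and droplet genes, Mogat1 (-0.97), Plin5 (-0.39) and Cideb (-0.34) were among the 6 called lower in TRE-MET livers, and Lpin1, a phosphatidate phosphatase, was the 1 called higher (1.12). Lpl, the lipoprotein lipase, was higher in dis-Liv (1.68), ad-Liv (2.0) and tumors (2.92) than in FVB-WT livers, and Fabp4, a fatty acid carrier of adipocytes and macrophages, was higher in tumors (2.91).

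Of 11 measured further sterol genes 1 was called lower in TRE-MET livers, the sterol reductase Tm7sf2 (-0.64), and 1 in dis-Liv, the methylsterol oxidase Msmo1 (-0.34). In tumors against dis-Liv 4 were higher and 3 lower, near the 28.4% and 24% among genes as bright as the members. Ebp, the sterol isomerase, was lower by 0.82. Mbtps2 (0.50) and Mbtps1 (0.30), the proteases that release SREBPs from the membrane, were higher. Among 12 genes of sterol export and bile acid synthesis, Cyp7a1, the rate-limiting enzyme of bile acid synthesis, was lower in TRE-MET livers (-1.10, adjusted p = 0.021) and higher in tumors than in dis-Liv (2.60, adjusted p = 7.55e-06). Abcg8, a subunit of the canalicular sterol exporter, was lower in dis-Liv than in FVB-WT livers (-0.67). Of 12 feeding and fasting genes, Igfbp1 lay at 5.12 to 6.21 in tumors and 0.91 to 3.15 in dis-Liv, Pdk4 was higher by 3.74 and G6pc lower by 2.66 in the same comparison, and Pck1 lay at -4.27 to 2.86 in tumors and 4.38 to 4.86 in dis-Liv. Food intake before sampling was not given, and its part was not tested.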

How the data were processed

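RNA from 49 mouse tissue samples was hybridised to 1-colour custom Affymetrix arrays. The authors summarised probes with RMA and deposited a linear intensity for each of 43681 probe sets, scaled to a mean of 1.0 per sample, with values from 0.0169 to 143.6 and no read depth, so that the number of arrays limits the precision. Per the labels the RMA version and further filters are not given in the sources used here. The log2 of these intensities was taken without pseudocount or filter, and sample medians lay between -3.42 and -3.2.

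Of the probe sets 30342 carried 1 gene symbol, 13339 none and 0 several, from the platform annotation, with 6202 symbols updated through RefSeq, giving 21517 genes. A gene was read at the probe set with the highest mean over all samples. Of the members 15 had 1 probe set and 20 had several, and of 56 member calls that could be set against another probe set of the gene, 46 were called the same way there and 0 the opposite way.

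Groups were compared with limma 3.58.1 (lmFit and eBayes, R 4.3.3) on the samples of the groups compared, after both tumors of a mouse were averaged, and p-values were adjusted by Benjamini-Hochberg over all 43681 probe sets. The procedure was tested on simulated data. For TRE-MET against LAP-tTA over 43681 probe sets it recovered 80% of genes changed by 0.5 on the log2 scale. Of genes changed by 1.0 it recovered 99%. Both shares describe all probe sets together and not the members. Among the TRE-MET samples the SD of a member ran from 0.15 (Plin2) to 0.86 (Sqle). Recovery at members with a wide spread was not tested, so a member left uncalled there is not shown to be unchanged. The members, the 17 other lists and the libraries left out were chosen with earlier results of these data known. All 35 measured members were reported. In each comparison the 8 called members with the largest changes were given with their levels, the 5 regulators were given throughout, and the 6 members with the smallest adjusted p were given for the interaction. Genes of the other lists were named by smallest adjusted p, at most 3 per list and comparison, and any further gene was named after its values were seen.

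Alternatives were other normalisations, array weights, the mean of a gene's probe sets, all 6 groups in a fit, the methods' one-way analysis of variance at an unadjusted p under 0.01, a replicate block and left-out samples. To check the pairing, each sample's departure from its group mean was correlated with that of the sample of the same number. The correlation was 0.14 to 0.43 between tumors and dis-Liv, 0.05 to 0.38 between tumors and ad-Liv and 0.47 to 0.67 between ad-Liv and dis-Liv. There the labels' numbers were read as marking the same mouse. The best correlation was with the own number for 5, 3 and 7 of the 7 mice, in that order. Between TRE-MET and LAP-tTA samples of the same number correlated at -0.02 to 0.11, and between MET and FVB-WT mice at -0.46 to 0.38. Those samples were read as sharing only a number. The ranges of the tumors overlap these, so the correlations alone cannot decide the pairing of tumors, which rests on the labels.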

Additional observations from a re-analysis of the deposited data

Results flagged for a closer look

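Of 210 sets of 7 values (35 genes in 6 groups, with both tumors of a mouse averaged), 18 (8.57%) held a sample far from the other 6 by Dixon's ratio of gap to range, where chance gives about 1 in 20. Mouse 5 gave high tumor means for 5 sterol genes, Hmgcs1 (3.75), Pmvk (2.23), Mvd (1.02), Hsd17b7 (3.01) and Srebf2 (0.95). Mouse 1, through tumor 1b, gave tumor means that were low for Mlxipl (0.50) and Dgat2 (2.23) and high for Cd36 (2.41). Its liver pieces were low for Thrsp in ad-Liv (5.15) and dis-Liv (5.16) and for Fasn in ad-Liv (3.68). FVB-WT sample 2 was high for Acaca (1.84) and Elovl6 (3.78), and FVB-WT sample 1 was low for Mvk (0.59) and Dhcr7 (1.34). TRE-MET sample 4 was low for Acly (1.21) and Idi1 (2.81), and LAP-tTA sample 5 was high for Dgat2 (3.40).

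The change in young MET liver differed from that in 14-week MET liver, by the limma interaction, at 10 genes, all of the fatty acid branch when all 7 TRE-MET livers were kept. The log2 interactions were -3.17 for Cd36, -3.07 for Pnpla3, -2.06 for Elovl6, -1.81 for Thrsp, -1.46 for Fasn, -1.44 for Scd1, -1.24 for Acacb, -0.94 for Acaca, -0.75 for Acly and -0.53 for Mlxipl. Each was negative, the young difference lying below the older one. Age, and by the labels and methods the control genotype and transactivator copies, differ between the 2 pairs of groups, and their parts cannot be told apart.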

How the results depend on the processing

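Of 103 calls of single members in 7 comparisons and the interaction, set against 1108 alternative values, 980 stayed called in the same direction, 127 were no longer called and 1 turned, Cd36 in tumors against FVB-WT livers (-0.325 with Xist-reading mice alone, not called). Of 160 alternative counts 26 moved by over 1.5 times, each count taking both directions together. A change of direction alone is not among these 26. Sterol calls in tumors against FVB-WT livers (6 higher, 3 lower) became 1 higher and 5 lower with Eif2s3y-reading mice, and 6 and 0 with Xist-reading mice. Those against ad-Liv (5 higher, 2 lower) became 5 and 5 with the block. With the all-sample count first in each case, TRE-MET fatty acid calls (8) became 4 without samples 1, 2, 3 and 5, and TRE-MET sterol calls (1) became 11 without samples 4, 6 and 7, 2 without samples 1, 2, 3 and 5, 3 without sample 4, and 0 with all 6 groups in a fit or the mean of a gene's probe sets. Fatty acid calls in dis-Liv (11) became 7 with Eif2s3y-reading mice, 3 with Xist-reading mice and 2 without FVB-WT samples 5 and 7, and sterol calls there (1) became 2, 3 and 0. In ad-Liv fatty acid calls (10) became 4 with Xist-reading mice, and sterol calls (0) became 1 with quantile normalisation, median centring or the block, 2 with all 6 groups or the mean of probe sets, 3 with brighter probe sets or Xist-reading mice, and 4 with array weights. In tumors, fatty acid calls against FVB-WT livers (10) became 6 with Xist-reading mice, sterol calls against dis-Liv (8) became 13 without tumor 1b, and sterol calls against ad-Liv (7) became 4 within either set of mice. The interaction (10 lower, 0 higher) became 17 without TRE-MET samples 4, 6 and 7 (10 lower, 7 higher). Smaller sets hold fewer samples, and other causes were not tested. With the replicate block, calls in tumors against dis-Liv were 15 for fatty acid and 11 for sterol genes, and in TRE-MET livers 8 and 1. The splits by Eif2s3y and Xist and the omission of FVB-WT 5 and 7, tumor 1b and TRE-MET 4 were chosen after seeing the data. Under the 3 scalings the median change of all genes ran from -0.084 to 0.032.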
